A study of Mus musculus with 24 samples.

Results

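The Hox cluster genes of mouse nerve roots were followed here on 24 one-colour gene expression arrays, which carried probes for 39 Hox genes out of 37074 gene names. The members were the gene probes whose name on the array was Hoxa, Hoxb, Hoxc or Hoxd followed by a number, and each gene was represented by the probe with the highest mean over the 24 arrays. The arrays measured total RNA of C57BL/6 mice, with no transgene, deletion or treatment in any group. Efferent nerve (EN) fibres, the ventral roots that carry motor axons, and afferent nerve (AN) fibres, the dorsal roots that carry sensory axons, were taken from segments L4-L6 at birth (P0) and at 1 week (1W), 3 weeks (3W) and 5 weeks (5W) of age. This gave 8 groups of 3 arrays. A root holds axons, Schwann cells, fibroblasts, blood vessels and macrophages, so a lower signal in such a sample cannot be assigned to fewer cells of a type or to less RNA per cell.

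Hox genes encode homeodomain transcription factors that give cells their position along the head-to-tail axis of the embryo. They lie in clusters in the order in which they are used, with the low-numbered paralogues active up to the hindbrain and the high-numbered paralogues restricted to lumbar, sacral and tail levels. In the spinal cord the Hox code sets the identity of motor neuron pools, and neural crest derivatives and connective tissue of the trunk keep part of the code of the level at which they arose. Hox10 paralogues are known for lumbar identity and Hox11 paralogues for sacral identity.

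The annotation used for coordinates (GRCm38.p6, RefSeq) placed the 11 Hoxa genes in 106 kb at chr6:52155367-52260880, the 10 Hoxb genes in 174 kb at chr11:96194316-96368254, the 9 Hoxc genes in 116 kb at chr15:102921131-103036856 and the 9 Hoxd genes in 97 kb at chr2:74668225-74765142. Promoter sequence was at hand for 22 of the 39 genes, in 24 promoters. The 250 bases before the start of 4 genes are shown, because Hoxd10 and Hoxa11 fell after birth, Hoxd8 rose by 3W in AN, and Hoxd1 differed between AN and EN at 1W. Capitals mark AGGTCA, the half-site of the retinoic acid receptors, which are regulators of Hox clusters in the embryo, or its reverse complement TGACCT.
Hoxd10, chr2:74691641-74691890, plus strand: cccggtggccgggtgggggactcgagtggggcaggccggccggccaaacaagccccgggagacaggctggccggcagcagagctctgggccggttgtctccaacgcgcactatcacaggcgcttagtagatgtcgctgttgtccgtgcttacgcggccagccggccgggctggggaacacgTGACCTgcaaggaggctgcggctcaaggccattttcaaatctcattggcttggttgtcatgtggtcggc
Hoxa11, chr6:52245811-52246060, minus strand: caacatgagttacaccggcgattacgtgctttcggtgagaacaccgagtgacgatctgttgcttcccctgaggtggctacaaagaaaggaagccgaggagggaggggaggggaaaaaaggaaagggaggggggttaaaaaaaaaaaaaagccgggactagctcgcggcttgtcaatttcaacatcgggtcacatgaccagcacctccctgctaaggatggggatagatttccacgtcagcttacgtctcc
Hoxd8, chr2:74704365-74704614, plus strand: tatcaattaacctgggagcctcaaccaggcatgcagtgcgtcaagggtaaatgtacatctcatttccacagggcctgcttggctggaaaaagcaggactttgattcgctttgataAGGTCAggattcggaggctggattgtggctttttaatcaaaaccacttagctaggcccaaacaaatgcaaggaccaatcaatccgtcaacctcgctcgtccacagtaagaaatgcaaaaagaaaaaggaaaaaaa
Hoxd1, chr2:74762730-74762979, plus strand: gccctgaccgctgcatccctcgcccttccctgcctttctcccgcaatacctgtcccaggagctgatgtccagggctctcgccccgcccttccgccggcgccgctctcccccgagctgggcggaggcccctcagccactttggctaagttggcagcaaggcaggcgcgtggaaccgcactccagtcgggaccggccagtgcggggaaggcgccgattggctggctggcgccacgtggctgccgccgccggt
The windows of Hoxd10 and Hoxd8 each held 1 match, and those of Hoxa11 and Hoxd1 held none. Over all 24 Hox promoters 6 held this motif on either strand, against 14.0% of 32851 mouse promoters of the same length. TGATNNAT, which PBX and HOX proteins bind together, was present in 4 Hox promoters and in 7.68% of all promoters. TGACAG, the MEIS motif, was present in 2 and in 15.9%. The number of CG dinucleotides in a Hox promoter had a median of 12.5 and went from 2 to 35, and over all promoters the median was 6.0 and the span 0 to 56. Hoxd1 had 24, Hoxd10 had 20, Hoxa11 had 13 and Hoxd8 had 6.

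The values are log2 signals of background-subtracted, quantile-normalized spots, and 36409 of 56605 gene probes were tested, those that exceeded background clearly in every replicate of some group. The median spot signal ranged from 45.4 to 191 between arrays, and 55.1% to 71.7% of spots on an array were above background. The lowest level that counted as above background lay between 3.71 and 5.87 on the log2 scale, depending on the array. All 8 Schwann cell markers were above background on all 24 arrays, but both roots hold Schwann cells, so these markers do not tell AN from EN. At P0 none of 9 sensory neuron markers was called between the roots. Their summed signal was 43090 to 118900 in AN and 52028 to 62391 in EN. From P0 to 1W 8 of these 9 were called lower in EN, so sensory neuron markers were high in the P0 EN reference. Of the motor neuron markers Mnx1 was above background on no array, and of 7 genes that pattern the forebrain 4 were above background on no array and Otx2 alone was tested. The arrays lay on 4 slides, and AN and EN arrays with the same replicate number always shared a slide, while no 3W array shared a slide with a P0 array. Neither the labels nor the methods say which animals entered which array, so the p-values measure the spread between these arrays.

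Most of the Hox code was measurable in the roots. Of the 39 genes 28 were above background on all 24 arrays, 30 could be tested, and 4 were above background on no array, namely Hoxa13, Hoxb1, Hoxd12 and Hoxd13. All 15 genes of paralogue groups 4 to 8 were tested, and 14 of them were above background on every array, with Hoxa4 on 22. Of the 8 genes of groups 1 to 3, 6 were tested, the exceptions being Hoxb1 and Hoxd3. Of the 16 genes of groups 9 to 13, 9 were tested, and these were all the group 9 and group 10 genes, Hoxa11 and Hoxc11. The remaining untested genes were Hoxd11 on 1 array, Hoxb13 on 4, Hoxc12 on 7, Hoxc13 on 8 and Hoxd3 on 8. Hoxd1 passed the filter through the 1W AN arrays and was above background on 9 arrays in all. By cluster, 10 of 11 Hoxa genes, 8 of 10 Hoxb genes, 7 of 9 Hoxc genes and 5 of 9 Hoxd genes were tested.

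**Figure D1:**
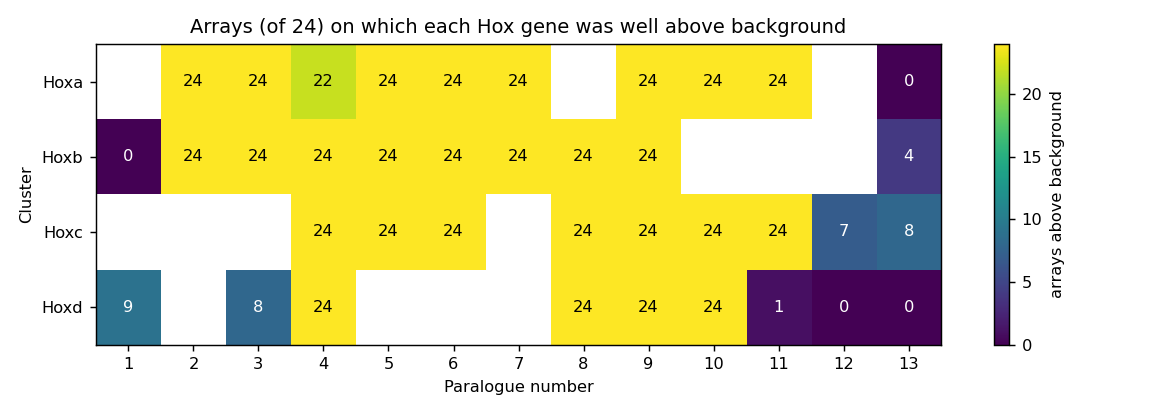
Number of the 24 arrays on which 38 of the 39 Hox genes were well above background (colour and printed number), in a grid of cluster (rows) by paralogue number (columns). Hoxa13, Hoxb1, Hoxd12 and Hoxd13 were above background on 0 arrays, and Hoxd1 on 9.

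Between birth and 5 weeks most of the measured Hox genes of groups 9 to 13 fell in both roots, and few Hox genes rose. A gene was called when its unadjusted p was below 0.05 and its fold change above 2, the thresholds of the study's methods, in limma's test over 8 group means. In EN 2 Hox genes were called higher and 7 lower of 30 at 5W, where 30.8% of all probes were called, 15.8% higher and 15% lower. In AN none was called higher and 11 were called lower, where 28.9% of all probes were called, 15.6% higher and 13.3% lower. By adjusted p below 0.05 without a minimum fold, 3 rose and 14 fell in EN, where 28.2% of all probes rose and 26% fell (54.3% in all). In AN 3 rose and 12 fell, where 26.5% of all probes rose and 24.2% fell (50.7% in all). The median Hox log2 change was -0.62 in EN and -0.64 in AN, beside 0.04 and 0.03 over all tested probes.

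The calls were then counted by position along the clusters. Of the 9 tested genes of groups 9 to 13, 4 were called lower in EN and 7 in AN, and none was called higher. Over all probes 15% were called lower in EN and 13.3% in AN. The 7 in AN included Hoxa10, at -1.01, and Hoxd9, which did not pass the adjusted test. The median log2 change of the 9 genes was -0.92 in EN and -1.43 in AN. By adjusted p 7 of these 9 fell in each root, beside 26% of all probes in EN and 24.2% in AN. Among the 15 genes of groups 4 to 8, 1 was called higher and 2 lower in EN, and 3 were called lower in AN, with medians of -0.44 and -0.04. Among the 6 genes of groups 1 to 3, 1 was called higher in EN and Hoxd1 lower in both roots, with medians of -0.09 and -0.18. All 4 clusters had members that fell. In EN 1 Hoxa, 3 Hoxb, 1 Hoxc and 2 Hoxd genes were called lower, and in AN 3, 2, 3 and 3.

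**Figure D2:**
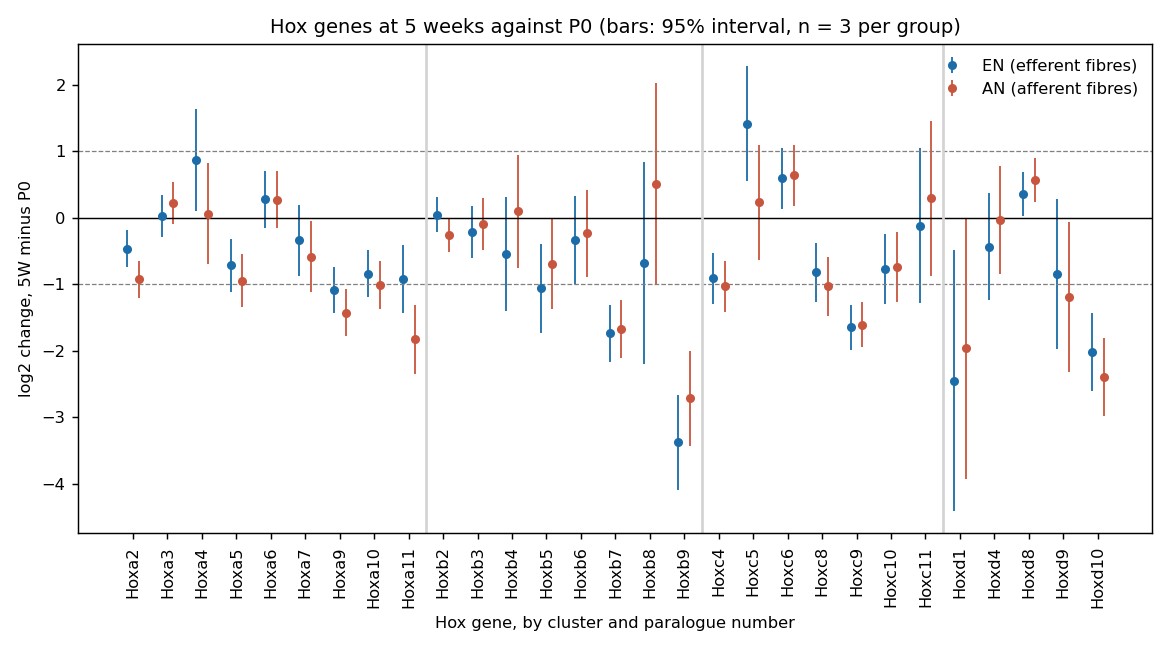
Log2 change from P0 to 5W for 29 of the 30 tested Hox genes in EN and AN, with 95% confidence intervals from the limma fit, ordered by cluster and paralogue number. Hoxb9 had the largest fall in both roots (-3.38 in EN and -2.72 in AN), and Hoxc5 was called higher in EN (1.42), while the Hoxd1 point in EN is a fitted value for which only a bound was measured.

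Hoxb9, a gene of thoracic and lumbar levels, fell most. In EN it read 10.91, 10.89 and 11.35 at P0, 9.52, 9.39 and 9.47 at 1W, 8.73, 8.42 and 8.23 at 3W, and 7.97, 7.64 and 7.39 at 5W. No array of one age overlapped with those of another in EN. In AN it read 11.51, 10.81 and 11.74 at P0, 9.70, 9.50 and 9.72 at 1W, 8.56, 8.42 and 8.74 at 3W, and 8.41, 9.74 and 7.75 at 5W. The 5W AN array of replicate 2 was as high as the 1W arrays, and all 5W arrays lay below all P0 arrays. The log2 change from P0 to 5W was -3.38 (SE 0.34, adjusted p = 1.37e-07) in EN and -2.72 (SE 0.34, adjusted p = 2.12e-06) in AN, by limma with Benjamini-Hochberg adjustment over all tested probes. Of the 5W arrays of each root only replicate 2 shared a slide with P0 arrays, those of replicates 2 and 3. That 5W array minus the mean of those P0 arrays gave -3.48 in EN and -1.54 in AN. The within-slide changes given below for other genes rest on the same arrays. A second Hoxb9 probe changed by -3.65 and -3.61.

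Hoxd10, which acts in lumbar motor neuron and hindlimb development, fell early. Its EN level was 8.41, 8.16 and 8.45 at P0, 5.89, 7.05 and 6.83 at 1W, 6.32, 6.15 and 6.51 at 3W, and 5.99, 6.18 and 6.77 at 5W. The AN level was 8.56, 8.80 and 9.17 at P0, 7.28, 7.62 and 7.43 at 1W, 7.16, 7.27 and 7.30 at 3W, and 5.83, 6.78 and 6.73 at 5W. Every later array lay below every P0 array of the same root. The change at 5W was -2.02 (SE 0.28, adjusted p = 7.29e-06) in EN and -2.40 (SE 0.28, adjusted p = 9.91e-07) in AN, and -2.12 and -2.21 within a slide.

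The other Hox10 paralogues had smaller changes. Hoxa10 read 11.86, 11.97 and 11.81 in EN and 11.82, 12.19 and 12.10 in AN at P0, and 10.92, 11.15 and 11.04 in EN and 10.96, 11.37 and 10.74 in AN at 5W. At 1W it read 11.10, 11.13 and 11.32 in EN and 11.11, 10.97 and 11.15 in AN, and at 3W from 10.96 to 11.04 in EN and 10.94, 10.83 and 11.53 in AN. The level had thus dropped by 1W in both roots, and no P0 array overlapped with a later one. The change at 5W was -0.84 (adjusted p = 3.58e-04) in EN and -1.01 (adjusted p = 6.07e-05) in AN, where the slide block gave -0.87 and ended the call.

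Hoxc10 read 8.96, 9.48 and 9.30 in EN and 9.09, 9.62 and 9.73 in AN at P0. At 1W it read 8.44, 8.56 and 9.17 in EN and 8.71, 8.36 and 9.03 in AN. At 3W the EN arrays gave 8.52, 8.42 and 8.62 and the AN arrays 8.76, 8.77 and 8.50. At 5W the EN arrays gave 8.07, 8.74 and 8.61, and the AN arrays gave 8.32, 9.21 and 8.70, where replicate 2 lay above the lowest P0 array. The change was -0.77 (adjusted p = 0.0146) in EN and -0.74 (adjusted p = 0.0204) in AN, under a fold of 2.

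Among the Hox11 paralogues, Hoxa11, a gene of sacral and forearm or lower leg development, fell in both roots. In AN it read 9.62, 10.34 and 10.46 at P0, 8.83, 8.82 and 8.83 at 1W, 8.84, 8.45 and 8.29 at 3W, and 8.04, 7.95 and 8.95 at 5W. In EN it read 9.48, 9.46 and 9.42 at P0, 8.59, 8.99 and 9.06 at 1W, 8.65, 8.21 and 8.27 at 3W, and 8.42, 8.38 and 8.79 at 5W. Later arrays did not overlap with P0 arrays in either root. The change at 5W was -1.83 (SE 0.25, adjusted p = 5.45e-06) in AN and -0.92 (SE 0.25, adjusted p = 0.00393) in EN, and -2.45 and -1.06 within a slide.

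Hoxc11 varied widely between replicates. Its AN values were 8.04, 8.31 and 7.99 at P0, 8.77, 8.74 and 6.87 at 1W, 9.49, 8.82 and 7.68 at 3W, and 7.97, 7.96 and 9.28 at 5W. The EN values were 8.28, 7.96 and 7.47 at P0, 6.67, 7.83 and 7.35 at 1W, 8.00, 7.10 and 6.91 at 3W, and 7.95, 6.88 and 8.51 at 5W. All its age groups overlapped at 5W and P0, and the changes of -0.12 (SE 0.55) in EN and 0.29 (SE 0.55) in AN did not pass the test. Hoxd11 read 4.34, 3.99 and 4.51 in the P0 AN arrays, 1 of which was above background, and it was not tested.

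Of the group 9 genes, Hoxc9, which sets thoracic motor neuron identity, read 11.70, 11.48 and 11.22 in EN at P0 and 9.84, 9.64 and 9.97 at 5W, and 11.87, 11.35 and 11.47 in AN at P0 and 9.99, 9.91 and 9.96 at 5W. The change was -1.65 (SE 0.16, adjusted p = 1.04e-07) in EN and -1.61 (SE 0.16, adjusted p = 1.41e-07) in AN, with no overlap. Within a slide it was -1.71 in EN and -1.5 in AN. Hoxa9, known from axial patterning and from blood stem cells, read 9.85, 9.37 and 9.60 in EN at P0 and 8.62, 8.56 and 8.36 at 5W, a change of -1.09 (adjusted p = 2.38e-05), or -0.92 with the slide as a block, under a fold of 2. In AN it read 9.99, 9.58 and 9.79 at P0 and 8.45, 8.52 and 8.10 at 5W, a change of -1.43 (adjusted p = 9.95e-07). Hoxd9 was uneven, since the 5W AN arrays read 6.12, 8.06 and 8.57 against 7.73, 9.08 and 9.52 at P0. They overlapped, and its change of -1.20 met the unadjusted threshold with an adjusted p of 0.0716. Without replicate 1 of 5W AN the change was -0.46 (adjusted p = 0.449), and in EN it changed by -0.85 (adjusted p = 0.191).

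In the middle of the clusters, Hoxb7, a gene of trunk patterning, stood with the falling genes. It read 12.87, 12.75 and 12.79 in EN at P0 and 11.11, 11.20 and 10.88 at 5W, and 13.07, 12.91 and 12.78 in AN at P0 and 11.17, 11.89 and 10.67 at 5W. The groups did not overlap, and the change was -1.74 (SE 0.21, adjusted p = 1.10e-06) in EN and -1.67 (SE 0.21, adjusted p = 1.81e-06) in AN. Within a slide, with replicate 2 as the only 5W array, it was -1.57 and -0.95, so that the AN value there was under a fold of 2. Hoxb5 fell by 1.07 in EN (adjusted p = 0.00889), and changed by -0.70 in AN (adjusted p = 0.0778). With the slide as a block its EN change was -0.67 (adjusted p = 0.0672), and it was no longer called. Hoxc4 and Hoxc8 were each called lower in AN, by 1.03 and 1.03 (with the slide as a block Hoxc8 stood at -0.95), and changed by -0.91 and -0.82 in EN with adjusted p below 0.05. Hoxa5 changed by -0.72 in EN and -0.95 in AN, also with adjusted p below 0.05. Hoxa6, Hoxa7, Hoxb4, Hoxb6 and Hoxb8 did not pass the adjusted test in either root, with changes from -0.68 to 0.51, and Hoxb8 ranged from 6.54 to 10.24 over the arrays. Hoxa4 changed by 0.87 in EN (adjusted p = 0.0510) and by 0.06 in AN, and Hoxd4 by -0.44 and -0.04.

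Hoxc5, a gene of cervical levels, rose in EN. It read 7.09, 7.09 and 7.05 at P0, 8.49, 6.85 and 7.04 at 1W, 8.23, 8.34 and 8.35 at 3W, and 7.87, 9.17 and 8.44 at 5W. In AN it read 6.65, 6.76 and 8.14 at P0, 5.91, 5.85 and 6.71 at 1W, 7.27, 7.20 and 7.42 at 3W, and 7.12, 7.36 and 7.75 at 5W. EN arrays of 3W and 5W lay above those of P0, while the AN arrays overlapped through replicate 3 of P0. The change at 5W was 1.42 (SE 0.41, adjusted p = 0.00715) in EN and 0.23 (SE 0.41, adjusted p = 0.667) in AN.

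Smaller rises without a fold of 2 at 5W were those of Hoxc6 and Hoxd8, neighbours of falling genes in their clusters. Hoxc6 changed by 0.59 (adjusted p = 0.0281) in EN and 0.64 (adjusted p = 0.0201) in AN. Hoxd8 changed by 0.57 (adjusted p = 0.00561) in AN and by 0.35 (adjusted p = 0.0683) in EN. Hoxa2, whose embryonic expression reaches farthest forward in the hindbrain, fell by 0.47 (adjusted p = 0.00574) in EN and by 0.93 (adjusted p = 1.02e-05) in AN. Hoxa3, Hoxb2 and Hoxb3 did not pass the adjusted test in either root, with changes from -0.26 to 0.22.

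At the earlier ages the same P0 arrays were the reference, so the comparisons are not independent of each other. At 1W, 1 Hox gene was called higher and 3 lower in EN, where 13.5% of all probes were called, 6.89% higher and 6.63% lower. The falls were Hoxb9 (-1.59), Hoxd10 (-1.75) and Hoxd1 (at least 1.58-fold lower, because no 1W EN array was above background). In AN none was called higher and 4 were called lower at 1W, where 10.3% of all probes were called, 5.8% higher and 4.49% lower. These were Hoxb9 (-1.71), Hoxd10 (-1.40), Hoxa11 (-1.31) and Hoxc5 (-1.03, adjusted p = 0.0844). The Hoxc5 call was lost with the slide as a block (-0.78) and without replicate 3 of P0 AN (-0.55, adjusted p = 0.428). By adjusted p 13 Hox genes fell and 1, Hoxd8, rose in AN at 1W, where 9.34% of all probes fell and 12.4% rose (21.7% in all). In EN 8 fell and 2, among them Hoxd8, rose, where 11.4% of all probes fell and 15.8% rose (27.1% in all).

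At 3W, 3 Hox genes were called higher and 6 lower in EN, where 31.5% of all probes were called, 16.6% higher and 14.9% lower. The rises included Hoxc5 (1.23) and Hoxd4 (1.23), and the falls were Hoxd1 (at least 1.59-fold), Hoxb9 (-2.59), Hoxd10 (-2.01), Hoxb7 (-1.57), Hoxc9 (-1.23) and Hoxa11 (-1.08). In AN 2 were called higher and 7 lower, where 28.8% of all probes were called, 15.5% higher and 13.3% lower. The rises were Hoxd4 (1.21) and Hoxd8 (1.06), and the falls were Hoxb9 (-2.78), Hoxb7 (-1.68), Hoxa11 (-1.62), Hoxd10 (-1.60), Hoxa9 (-1.32), Hoxc8 (-1.16) and Hoxc4 (-1.09). By adjusted p 5 Hox genes rose and 13 fell in each root at 3W. Of all probes 29.1% rose and 26.1% fell in EN (55.1% in all), and 26.9% rose and 25% fell in AN (51.9% in all).

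**Figure D3:**
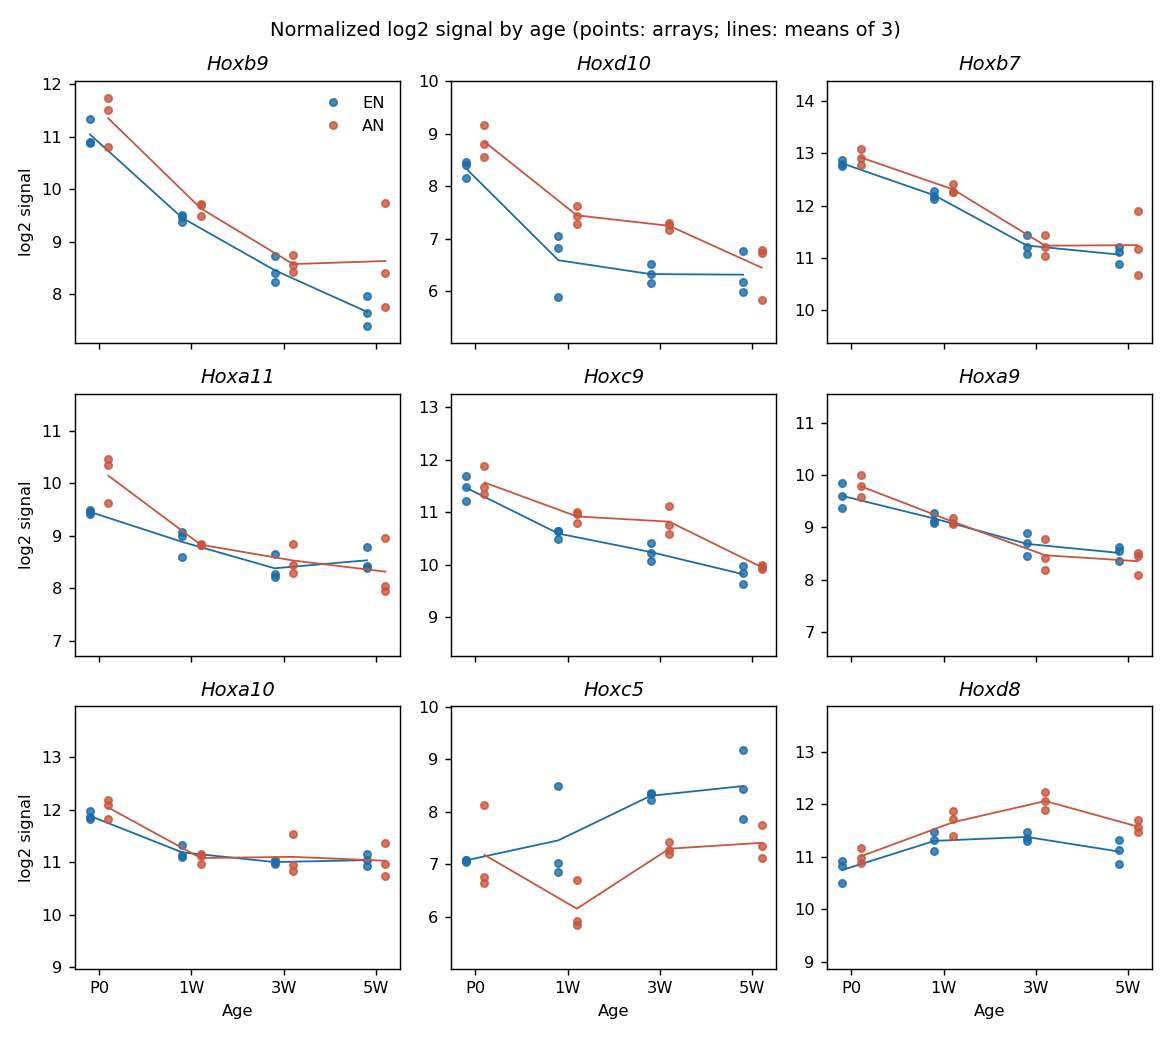
Normalized log2 signal at P0, 1W, 3W and 5W of 9 Hox genes in EN (blue) and AN (red), with a point for each array and a line through the means of 3 arrays. Hoxb9 in EN dropped from 10.89 or more at P0 to 7.97 or less at 5W, while Hoxc5 in EN rose from 7.09 or less to 7.87 or more.

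Hoxd4, which is active from the hindbrain downwards, was called higher at 3W in both roots. The EN arrays gave 7.33, 8.21 and 7.31 at P0, 7.27, 7.24 and 7.37 at 1W, 9.09, 8.92 and 8.54 at 3W, and 6.67, 6.84 and 8.03 at 5W. The AN arrays gave 7.67, 8.38 and 7.77 at P0, 7.57, 7.29 and 7.47 at 1W, 9.91, 8.92 and 8.63 at 3W, and 7.25, 7.85 and 8.61 at 5W. All 3W arrays and replicate 3 of 5W were on the same slide, and that replicate was the highest of 5W in both roots. With the slide as a block the change at 3W was 0.14 (adjusted p = 0.823) in EN and 0.12 (adjusted p = 0.853) in AN, and it was no longer called. That block ties the 3W arrays to the P0 arrays only through replicate 3 of 5W in EN and AN. Slide and age are thus nearly confounded at 3W, and the blocked values rest on those 5W arrays. For Hoxd8 the slide block gave 0.68 (adjusted p = 0.0125) in AN at 3W, under a fold of 2.

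The falls at 3W were read against the slides in the same way and with the same limit, which also holds for the scan batch. In EN the slide block moved Hoxb7 to -0.89 and Hoxb9 to -1.58, and the Hoxd1 call was lost (adjusted p = 0.114). Hoxc5 in EN was 1.08 with the scan batch as a block (adjusted p = 0.157), which ended its call. In AN the slide block gave -0.94 for Hoxa9 (adjusted p = 0.00227), -0.77 for Hoxc8 (adjusted p = 0.0172) and -0.97 for Hoxc4 (adjusted p = 8.64e-05), all under a fold of 2. Hoxb9 and Hoxb7 in AN went to -1.76 and -1.01 and stayed called. Hoxd10 and Hoxa11 had larger falls under the slide block, with -2.66 and -1.84 in EN and -2.25 and -2.38 in AN.

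Between AN and EN of the same age few Hox genes differed. At P0 no Hox gene was called by limma, where 1.11% of all probes were called. Unadjusted p alone was below 0.05 for 1 of 30, Hoxa11 (log2 difference AN minus EN 0.69, adjusted p = 0.342). The share of all probes at that threshold was not counted. At 1W 1 was called higher in AN and 1 lower, where 4.9% of all probes were called, 4.16% higher and 0.742% lower. The higher gene was Hoxd1, which passed the filter through the 1W AN arrays. At 3W 2 were called higher and 2 lower, where 5.66% were called, 4.18% higher and 1.47% lower. At 5W 1 was called lower and none higher, where 5.6% were called, 4.24% higher and 1.36% lower. By adjusted p the counts were 0, 2, 3 and 1, beside 0.728%, 4.03%, 5.92% and 6.82% of all probes.

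**Figure D4:**
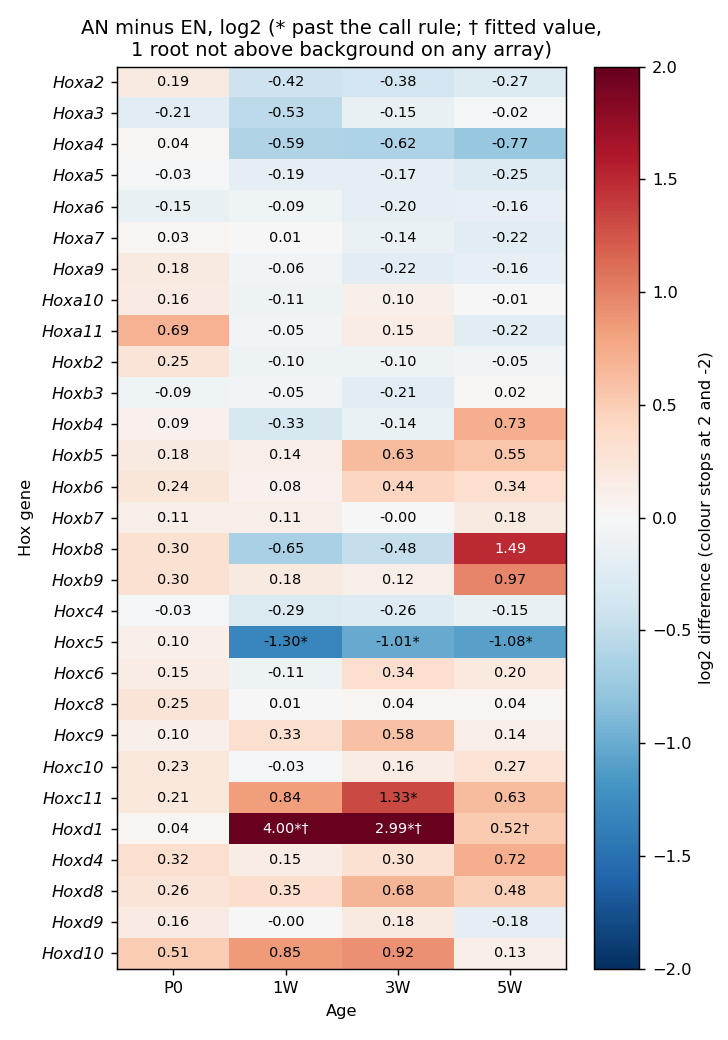
Log2 difference AN minus EN for 29 of the 30 tested Hox genes (rows) at P0, 1W, 3W and 5W (columns), with the value printed, an asterisk where the difference was called and a colour scale that stops at 2 and -2. Hoxc5 lay between -1.01 and -1.30 at 1W, 3W and 5W. A dagger marks Hoxd1 from 1W on, where no EN array was above background and the printed number is a fitted value, not a measured size.

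Hoxd1, which in the mouse acts in pain-sensing neurons of the dorsal root ganglion, differed between the roots at 1W. The AN arrays read 5.18, 6.91 and 4.65 at P0, 6.29, 6.26 and 7.01 at 1W, 4.33, 3.49 and 8.73 at 3W, and 4.75, 3.53 and 2.56 at 5W. The EN arrays read 5.98, 4.96 and 5.69 at P0, then 2.53, 2.52 and 2.51 at 1W, 2.52, 2.53 and 2.53 at 3W, and 2.52, 2.51 and 4.25 at 5W. Thus the roots overlapped at P0, no EN array was above background from 1W on, and the 3W AN arrays were low except for replicate 3. At 1W Hoxd1 was at least 3.11-fold higher in AN, with 3 AN arrays and 0 EN arrays above background. The limma adjusted p of 0.0185 belongs to the fitted difference, and it was 0.135 with normexp background correction. These AN arrays were also the ones through which Hoxd1 passed the filter, so the test at 1W was not independent of the filter. At 3W Hoxd1 was at least 1.56-fold higher in AN (adjusted p = 0.0676 for the fitted difference), with 1 AN array above background. Without that array no 3W array of either root was above background, and the adjusted p was 0.295. From P0 to 5W Hoxd1 was at least 1.42-fold lower in EN (adjusted p = 0.0338), with 2 of 3 P0 arrays above background. In AN the fitted change was -1.97 (adjusted p = 0.0883) and the groups overlapped.

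Sensory neuron markers moved with Hoxd1. All 9 markers on the list were tested, and 8 were called higher in AN at 1W, 7 at 3W and 1 at 5W, while none was called at P0. Of all probes 4.16%, 4.18% and 4.24% were called higher at 1W, 3W and 5W. The adjusted test was passed, with AN higher, by 8 markers at 1W, 2 at 3W and 1 at 5W. Their summed signal ranged from 89202 to 103490 in AN and from 13623 to 37957 in EN at 1W. At 3W it was 65648, 36717 and 259430 in AN replicates 1, 2 and 3, so that the array highest for Hoxd1 was also the highest for these markers, and it ranged from 30954 to 46080 in EN. At P0 it ranged from 43090 to 118900 in AN and from 52028 to 62391 in EN, and at 5W from 37134 to 62878 and from 17421 to 34529. Their part in the Hoxd1 differences was not tested.

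**Figure D5:**
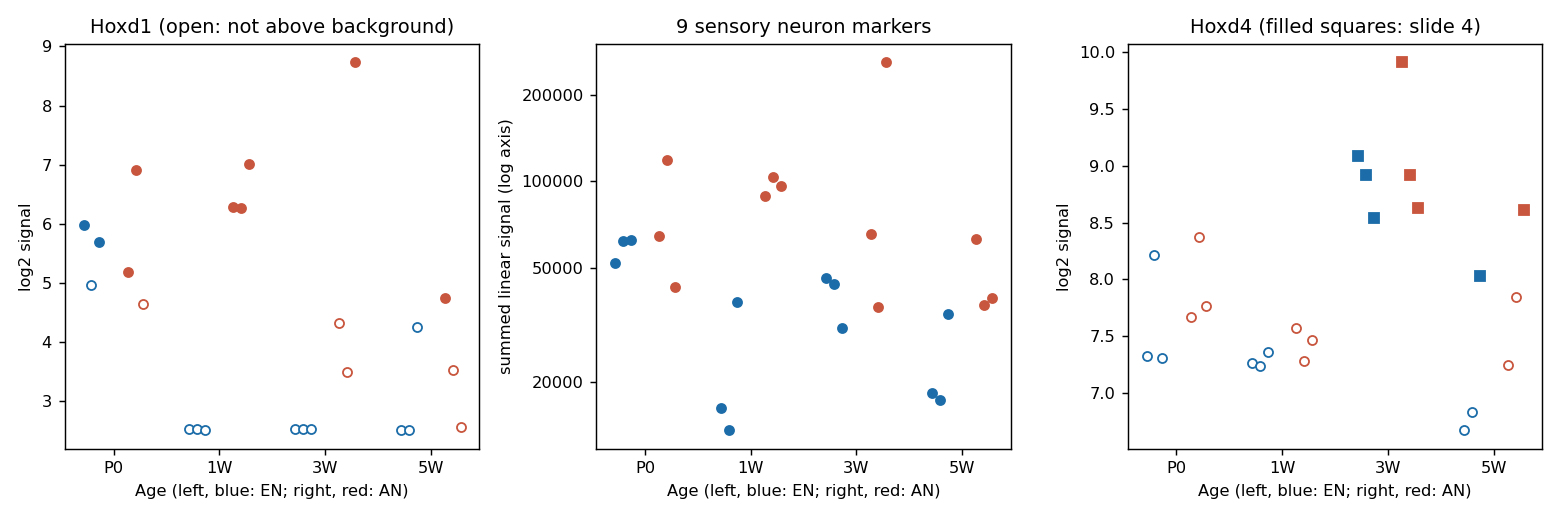
Values on each of the 24 arrays by age in EN (blue) and AN (red), showing the log2 signal of Hoxd1 with open circles where it was not above background, the summed signal of the 9 sensory neuron markers on a log axis, and the log2 signal of Hoxd4 with filled squares for arrays on slide 4. The sum is weighted to the brightest markers. Replicate 3 of 3W AN was the highest array for Hoxd1 (8.73) and for the summed markers (259430), and the slide 4 arrays included all 3W arrays of Hoxd4 (8.54 to 9.91).

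Hoxc5 was called lower in AN than in EN, by 1.30 (adjusted p = 0.0940) at 1W, 1.01 (adjusted p = 0.172) at 3W and 1.08 (adjusted p = 0.133) at 5W, and no age passed the adjusted test. The same-numbered pairs differed by -2.57 to -0.33 at 1W, by -0.96, -1.14 and -0.93 at 3W, and by -0.75, -1.81 and -0.68 at 5W. All AN arrays lay below all EN arrays at each of these ages, but single arrays decided whether a difference passed the thresholds. At 1W the difference was -0.79 without EN replicate 1 (adjusted p = 0.523), and at 5W it was -0.74 without EN replicate 2 (adjusted p = 0.355). At 3W it was -0.96 without AN replicate 2 (adjusted p = 0.283), under a fold of 2. Hoxc11 was called higher in AN at 3W by 1.33 (SE 0.55, adjusted p = 0.185), and its AN and EN arrays overlapped.

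Hoxd8 and Hoxc9 were higher in AN at 3W by less than a fold of 2. Hoxd8 read 12.24, 11.89 and 12.06 in AN against 11.48, 11.36 and 11.30 in EN, a difference of 0.68 (adjusted p = 0.0147), and its second probe gave 0.68 (adjusted p = 0.0160). Hoxc9 read 10.58, 10.75 and 11.13 in AN against 10.08, 10.41 and 10.23 in EN, a difference of 0.58 (adjusted p = 0.0406).

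Same-numbered AN and EN arrays deviated together at P0, 1W and 5W, and only weakly at 3W (correlations of 0.11 to 0.21). Each age was also fitted with the replicate number as a block. More Hox genes then passed the adjusted test, 6 at 1W, 8 at 3W and 4 at 5W, and so did more of all probes, 11.1%, 21.3% and 23.8%. At P0 no Hox gene passed it, where 3.87% of all probes did, and Hoxa11 had a limma adjusted p of 0.0633. The genes added at 1W were Hoxa2, Hoxa3 and Hoxc4, lower in AN by 0.42, 0.53 and 0.29, and Hoxd10, higher by 0.85 (adjusted p = 0.0218). At 3W they were Hoxa2 and Hoxc4, lower by 0.38 and 0.26, and Hoxc6, Hoxc11 and Hoxd10, higher by 0.34, 1.33 and 0.92. At 5W they were Hoxb9, Hoxd4 and Hoxd8, higher by 0.97, 0.72 and 0.48. The Hoxb9 pairs differed by 0.45, 2.10 and 0.36 in replicates 1, 2 and 3, so the mean rested on replicate 2, and the Hoxd4 pairs by 0.57, 1.01 and 0.58. Under the thresholds of p and fold, Hoxb8 was added at 5W (1.49, adjusted p = 0.0910), with same-numbered differences of -0.56, 2.51 and 2.52.

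The change of the AN minus EN difference from P0 to 5W was tested as an interaction. No Hox gene was called by limma, where 4.62% of all probes were called, and none passed the adjusted test, where 1.15% did. Unadjusted p alone, for which no share of all probes was counted, was below 0.05 for 3 of 30 genes. These included Hoxa2 (-0.46, adjusted p = 0.335) and Hoxa11 (-0.91, adjusted p = 0.300). The differences in fall between the roots did not pass the test for Hoxb9, Hoxd10, Hoxc9 or Hoxa10 (-0.37 to 0.66).

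Second probes bore on a few genes. Hoxa10 had a second probe that changed by -1.09 in EN and -1.44 in AN from P0 to 5W, against -0.84 and -1.01 for the first. Hoxa9 had a second probe that changed by 0.26 and -0.40, so its probes disagreed in EN, and the other changed by -1.14 in AN. Hoxb2 had a second probe that changed by 0.74 and 1.85 where the first changed by 0.04 and -0.26, and that was 1.24 higher in AN at 5W (adjusted p = 0.0161). Hoxb3 had others with -0.48 and -0.38, and with 0.15 and 1.08. Probes of a gene can bind different transcripts, and which ones was not examined here.

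HOX proteins bind DNA with TALE homeodomain partners, and 9 of 9 genes for these were tested. From P0 to 5W 1 was called higher and 1 lower in EN, and none higher and 1 lower in AN, with an adjusted count of 1 higher and 5 lower in EN and 0 and 3 in AN. Over all probes 30.8% were called in EN and 28.9% in AN, and 54.3% and 50.7% passed the adjusted test. The TALE counts called lay below these shares, but the adjusted count in EN lay above. By adjusted p 5 of 9 fell in EN and 3 of 9 in AN, beside 26% and 24.2% of all probes. Meis2 was the falling gene in both. It read 9.15, 9.20 and 8.88 in EN at P0 and 5.08, 5.22 and 5.23 at 5W, and 8.80, 9.24 and 8.61 in AN at P0 and 6.14, 6.89 and 6.14 at 5W. The change of Meis2 was -3.90 (adjusted p = 1.43e-06) in EN, where 1 of 3 arrays was above background at 5W, and -2.49 (adjusted p = 2.22e-04) in AN. Meis2 was higher in AN than in EN at 1W by 1.90 (adjusted p = 0.0261), and its 3W AN array of replicate 3, at 8.62, was the highest of its group, as for Hoxd1. Pbx4 rose by 1.14 in EN.

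Of 11 non-coding RNAs of the clusters 8 were on the array under the name searched, and all 8 were tested. From P0 to 5W 1 of 8 was called higher in EN, where 15.8% of all probes were called higher. In AN 2 of 8 were called lower, where 13.3% of all probes were called lower. By adjusted p 2 rose and 1 fell in EN, beside 28.2% and 26% of all probes. In AN 1 rose and 4 fell by adjusted p, beside 26.5% and 24.2%. Halr1, a transcript of the Hoxa region, read 4.53, 4.54 and 3.78 in EN at P0 and 5.62, 5.22 and 5.88 at 5W, and 3.82, 3.32 and 2.69 in AN at P0 and 4.10, 3.58 and 4.51 at 5W. No P0 array was above background, so Halr1 was at least 1.41-fold higher in EN at 5W (adjusted p = 0.00510). At 5W Halr1 was lower in AN than in EN by 1.51 (adjusted p = 0.0141), with 1 AN array and 2 EN arrays above background. Hoxd3os1 and Hoxaas3 fell by 1.12 and 1.01 in AN. Of 9 genes beside the clusters 8 were tested, and 2 were called higher and 1 lower in EN and 1 higher and 1 lower in AN. These counts lay near the 30.8% in EN and 28.9% in AN called over all probes. Skap2, beside the Hoxa cluster, rose by 1.45 (adjusted p = 1.04e-09) in EN and by 0.87 (adjusted p = 8.05e-07) in AN, and Evx2, next to Hoxd13, changed by 0.46 and 0.16.

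Polycomb complexes keep Hox genes silent outside their domain, and all 16 Polycomb genes listed were tested. From P0 to 5W 3 were called higher and 1 lower in EN, and 4 higher and 1 lower in AN. These 4 of 16 and 5 of 16 lay near the 30.8% in EN and 28.9% in AN called over all probes. Cbx7, a chromobox subunit that reads the repressive mark, rose by 3.52 (adjusted p = 4.57e-09) in EN and by 4.13 (adjusted p = 5.51e-10) in AN. Of the methyltransferases that write this mark, Ezh1 rose by 1.78 and 2.06, and Ezh2 fell by 1.25 in EN (adjusted p = 1.13e-04) and passed in AN as well (adjusted p = 1.77e-04). Cbx6 rose by 1.30 and 1.41. Of 7 trithorax and demethylase genes, which oppose Polycomb, Ash2l was called lower in EN (-1.18) and none was called in AN. Of the upstream patterning genes Cdx1, Cdx2, Cdx4 and Gdf11 were not tested, Rarg rose by 1.35 in EN and 1.77 in AN, and Rara fell by 1.15 and 1.02.

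Cell cycle and cell type markers moved over the same interval as the falling Hox genes. All 5 proliferation markers were called lower at 5W in both roots, with medians of -4.07 in EN and -4.50 in AN, and their summed signal in EN went from between 27975 and 34005 at P0 to between 1926.5 and 2834.4 at 5W. The AN sums went from between 43898 and 56809 to between 2399.8 and 3127.6. Of 8 Schwann cell markers 2 were called higher in EN and 5 in AN, and their summed signal in EN went from between 725960 and 782230 to between 1215600 and 1237100. The AN sums went from between 488590 and 606070 to between 1181600 and 1226300. Of 9 sensory neuron markers 7 were called lower in EN, and 5 lower and 1 higher in AN. Of 6 fibroblast markers 2 were called higher and 1 lower in EN, and 1 and 1 in AN, and of 5 macrophage markers 4 were called higher in EN and 2 in AN. Of 5 skeletal muscle markers 1 was called higher and 3 lower in EN, and 1 and 1 in AN. Their summed signal in EN went from between 44858 and 109510 at P0 to between 7860.3 and 19646 at 5W, and the AN arrays lay between 23460 and 46486 and then between 3110.6 and 79117. Of 4 motor neuron markers tested, 3 were called lower in EN, and 3 lower and 1 higher in AN, with Isl1 also on the sensory list. The summed signal of all 5 motor neuron markers in EN was 833.43 to 1235.2 at P0 and 356.6 to 792.49 at 5W, against 727.1 to 1494.8 and 551.73 to 1016 in AN. Of 5 endothelial markers 1 was called lower in each root. Of 4 oligodendrocyte markers 1 was called lower in EN and 1 higher in AN, and of 4 astrocyte markers 1 was called higher and 1 lower in EN and 2 higher in AN. Their part in the Hox changes was not tested.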

How the data were processed

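Total RNA of 24 root samples was labelled with Cy3 and hybridised to one-colour 8-array slides. The authors deposited the scanner output of each array, from which the background-subtracted spot intensity (Agilent Feature Extraction 10.7.1.1, per the submitters' processing notes) was taken, and a table of log2 values that the authors had quantile normalized. Here the intensity was used as the main measure, control and outlier spots were removed, spots of a probe were averaged, and log2 values were quantile normalized. The deposited log2 table was an alternative, gave the same counts of Hox genes called and chose the same probe for all 39 genes. No spot was saturated.

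The 36409 probes that exceeded background clearly in all replicates of some group were fitted with limma 3.58.1 in R 4.3.3 as 8 group means (16 residual degrees of freedom), and p-values were adjusted by Benjamini-Hochberg over all of them. The script was tested on simulated data. Where a gene was not above background on any array of the dimmer group, "at least" bounds use the detection limit of each array. The p-values printed with such bounds belong to the fitted difference, not to the bound. The replicate number came from the labels, and deviations of same-numbered AN and EN arrays correlated at 0.11 to 0.66 at every age, so a fit with the number as a block was also made. Slide, scan batch, background correction, scaling, filter, probe and each left-out array were varied.

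The Hox genes and gene lists were chosen with earlier results of these data known. Values on every array were given for the 3 largest rises and falls among called genes between roots and from P0 to 5W, and for the Hox10 and Hox11 paralogues, and were added for further genes after their values were seen. The array files name probe positions in mm9, which are not used here. Promoters came from RefSeq (GRCm38.p6). For 1 Hox gene no values are reported here, and the counts include it.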

Additional observations from a re-analysis of the deposited data

Results flagged for a closer look

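Genes whose AN minus EN difference was called changed from P0, by unadjusted limma p and a fold above 2, included Hoxc5 and Hoxd1. No Hox gene passed the adjusted test at 1W or 3W in the fit of 8 group means. Unadjusted p was below 0.05 for 5 of 30 Hox genes at 1W and 4 of 30 at 3W. The share of all probes under the same fit and threshold was not counted. With the replicate number as a block, 4.42% and 5.11% of all probes were called by p and fold at these ages. That is another fit and a stricter rule, so these shares are no background for the counts of 5 and 4. Hoxc5 changed by -1.407 on the log2 scale at 1W (limma adjusted p = 0.552). For Hoxd1 the fit gave 3.963 at 1W (limma adjusted p = 0.359) and 2.953 at 3W (limma adjusted p = 0.494). These 2 fitted values are not measured sizes, because no EN array was above background at either age and they depend on where such spots are set, and Hoxd1 passed the filter through the 1W AN arrays alone. Only the lower bounds of the AN to EN ratio, given above, were measured. At 3W replicate 3 of AN was far above the other 2. With the replicate number as a block within each age the limma adjusted p was 0.260 for Hoxc5, and 0.199 and 0.274 for Hoxd1. Each group had 3 arrays, so no group was tested for single outlying arrays.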

How the results depend on the processing

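No alternative reversed the direction of any of the 53 called Hox changes or differences, and 25 kept their call under every alternative. These included Hoxb9 and Hoxd10 in all 6 comparisons with P0. Precision was limited by 3 arrays a group, and genes near background have only bounds.

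Between AN and EN, the 2 genes called at 1W became 1 with normexp background correction, with probes above background on all 24 arrays alone, or with adjusted p and fold, and 6 with adjusted p in the block within age. The 4 at 3W became 2 with normexp, 1 with adjusted p and fold, and 8 with adjusted p in that block. The 1 at 5W became 0 with normexp, adjusted p and fold, or array weights, and 2 with 75th percentile scaling, either replicate block, the slide block, the scan batch block or the second probe, and 4 with adjusted p in the block within age. For the interaction at 5W, where 0 were called, the slide block, array weights, the second probe and adjusted p in the block within age gave 1 each.

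Against P0 in EN, normexp gave 2 at 1W and 5 at 3W in place of 4 and 9, and no filter gave 7 at 1W. Adjusted p without a fold gave 10, 18 and 17 at 1W, 3W and 5W, and 11, 18 and 19 with the replicate block. In AN, normexp gave 6 at 5W in place of 11, and adjusted p gave 14 and 18 at 1W and 3W, and 16, 19 and 17 at 1W, 3W and 5W with the replicate block. The replicate block changed no other count of calls by over 1.5 times. The cause of these moves was not tested.

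Leaving out arrays gave 0 to 0, 1 to 4, 2 to 4 and 0 to 5 between AN and EN at P0, 1W, 3W and 5W, 3 to 6, 7 to 11 and 7 to 11 against P0 in EN, 3 to 7, 7 to 11 and 7 to 13 in AN, and 0 to 3 for the interaction. At 1W the count between AN and EN fell to 1 without EN replicate 1. At 3W it was 2 without AN replicate 1, AN replicate 2 or EN replicate 2. At 5W it was 5 without EN replicate 1, 3 without AN replicate 1, 2 without AN replicate 3, EN replicate 2 or EN replicate 3, and 0 without replicate 2 of both. In AN against P0 it was 7 at 1W without P0 replicate 1 and 7 at 5W without 5W replicate 3. For the interaction it was 3 without 5W AN replicate 3 or 5W EN replicate 1.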
